A study of Mus musculus with 18 samples.

Results

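The corpus luteum genes described here were Ptgfr and Prlr (receptors), Akr1c18, Hsd17b7 and Sult1e1 (steroid enzymes), and Cited4 and Lhx9 (transcriptional regulators). Each was taken as the transcript cluster, the array's set of probes for a transcript, that the platform annotation assigns to that symbol alone. This gave 6 of 7 genes, among 22180 genes with such a cluster, and 1 cluster per gene. No cluster was assigned to Prlr, so the prolactin receptor was not analysed here.

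The corpus luteum forms from the granulosa and theca cells of a follicle after ovulation and secretes progesterone. In rodents, prolactin acting through its receptor maintains luteal progesterone output and holds down the enzyme that inactivates progesterone. Prostaglandin F2alpha, acting through Ptgfr, ends that output and starts luteal regression.

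RNA from hypothalamus, pituitary and whole ovary was hybridised to 18 single-colour arrays, 6 per tissue. The mice were female BABL/c (strain name as labelled), 6 weeks old at the start, from 10 littermate pairs, 1 of each pair going to the control group and 1 to the stress group. Stress was road transport, labelled as over 1000 km at about 50 km/h and lasting nearly 10 h. These figures cannot all hold for a single journey at that speed, and they are given as labelled. Both groups were superovulated at 9 weeks of age. In each group, each tissue gave 1 sample of the best ovulator by oocyte number (high), 1 sample of the worst (low) and 1 mixture of the remaining 8 mice (pool). Control and stressed mice therefore shared the hormone treatment, no array represents an ovary without it, and luteal cells were not separated from the rest of the ovary. Values are log2 signals, so that 1 unit is a 2-fold difference, and the number of arrays limits their precision. Class pairs a control with a stress array by rank in oocyte number, and a group's 3 arrays mix 2 single mice with 1 pool.

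Tissue markers fitted the tissue labels, with 6 of 7 ovarian, 7 of 7 pituitary and 6 of 6 measured hypothalamic markers higher on every array of their tissue than on any other array. The pool arrays stood apart. The 7 ovarian markers averaged 4.88 to 5.28 in the single-mouse pituitaries, 5.22 in their control pool and 7.4 in their stressed pool. The same mean was 4.79 to 5.26 in single-mouse hypothalami, 5.21 in the control and 6.61 in the stressed pool of that tissue. The 7 pituitary markers averaged 6.88 and 7.31 in the control and stressed ovary pools, against 4.5 to 4.85 in single-mouse ovaries. Ovary differences of Ptgfr, Akr1c18, Hsd17b7 and Cited4 are therefore given with and without the pools, as are stress differences that depended on them. Differences of genes other than the members include the pools.

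The promoters of the 4 genes that were higher in ovary than in both other tissues are shown, because these genes shared that pattern. Each sequence is the 250 bases before the start site in RefSeq on GRCm38.p6, printed 5′ to 3′ along the gene's strand, with matched motifs in capitals.
Ptgfr, chr3:151837529-151837778, minus strand: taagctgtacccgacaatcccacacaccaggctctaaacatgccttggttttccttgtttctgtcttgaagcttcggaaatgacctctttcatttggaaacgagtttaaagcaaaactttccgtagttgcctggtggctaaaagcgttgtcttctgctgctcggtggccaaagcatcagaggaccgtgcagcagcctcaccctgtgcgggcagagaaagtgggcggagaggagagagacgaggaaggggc
Akr1c18, chr13:4150647-4150896, minus strand: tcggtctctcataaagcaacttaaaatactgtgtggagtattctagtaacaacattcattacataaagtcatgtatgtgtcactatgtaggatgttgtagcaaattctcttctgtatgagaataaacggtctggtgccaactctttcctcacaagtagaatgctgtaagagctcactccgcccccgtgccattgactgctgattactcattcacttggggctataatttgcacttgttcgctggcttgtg
Hsd17b7, chr1:169969206-169969455, minus strand: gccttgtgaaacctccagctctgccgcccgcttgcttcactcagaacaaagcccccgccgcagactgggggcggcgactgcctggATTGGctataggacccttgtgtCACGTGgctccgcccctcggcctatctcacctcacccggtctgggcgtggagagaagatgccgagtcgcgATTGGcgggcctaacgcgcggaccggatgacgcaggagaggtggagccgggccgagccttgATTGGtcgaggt
Cited4, chr4:120666313-120666562, plus strand: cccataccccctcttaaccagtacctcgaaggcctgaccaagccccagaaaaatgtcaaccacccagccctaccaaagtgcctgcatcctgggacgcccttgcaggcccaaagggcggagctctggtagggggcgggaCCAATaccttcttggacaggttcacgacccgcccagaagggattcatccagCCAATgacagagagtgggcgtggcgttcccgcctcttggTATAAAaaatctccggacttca

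The search covered 8 motifs on both strands of 32851 promoters of the same length from 27025 genes. The STAT5 element TTCNNNGAA, bound by the factors that prolactin activates, was present in 7.02% of all promoters. The NR5A site CAAGGTCA was present in 1.33% and the NBRE, AAAGGTCA, in 1.34%; these share the run AGGTCA. The AP-1 element TGANTCA was present in 6.75%, the cyclic AMP response element TGACGTCA in 1.55%, TATAAA in 12.4%, CCAAT in 33.8% and the E-box CACGTG in 6.02%. No letters of these 8 motifs were found in the Ptgfr, Akr1c18 or Sult1e1 windows. The Hsd17b7 window held CCAAT on the opposite strand 3 times, ending 161, 69 and 8 bases before the start site, and CACGTG once, 143 to 138 bases before it. The Cited4 window held TATAAA 22 to 17 bases before the start site and CCAAT on the gene's strand at 112 to 108 and 61 to 57 bases. Lhx9 had 1 CCAAT on the opposite strand at 24 to 20 bases. Prlr has 3 start sites in RefSeq, and their windows held, in turn, CCAAT, a STAT5 element at 110 to 102 bases and an AP-1 element at 20 to 14 bases, the only matches to the latter 2 motifs among the members. Of the 4 promoters shown, those of Hsd17b7 and Cited4 shared the CCAAT box, a motif present in 33.8% of all promoters. It was added to the search, with the TATA box and E-box, after the promoters were read. The sharing therefore describes these sequences and is not a test.

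**Figure D1:**
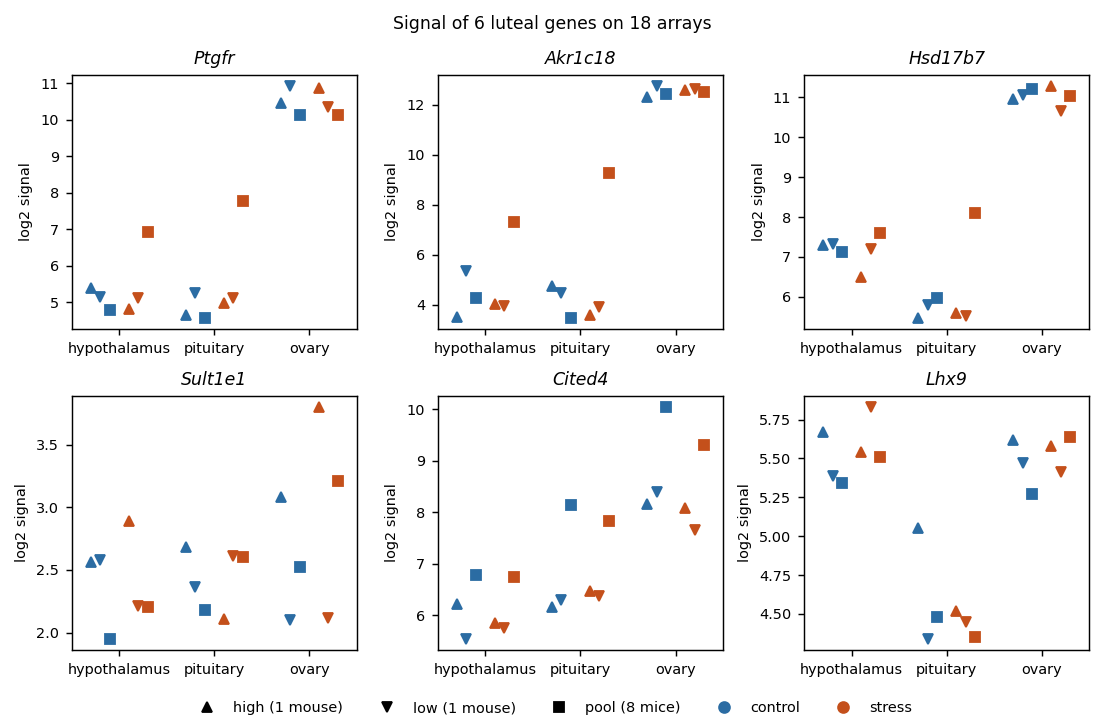
Log2 signal (y axis) of the 6 measured genes on each of the 18 arrays, by tissue (x axis); triangles are single mice, squares are pools, blue is control and orange is stress. Ptgfr, Akr1c18 and Hsd17b7 are higher on all 6 ovary arrays than on any other array, and the stressed pools of hypothalamus and pituitary lie above the other arrays of their tissue for these 3 genes.

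The first comparison was of ovary with the other tissues. Ptgfr, Akr1c18, Hsd17b7 and Cited4 were higher in ovary than in hypothalamus and than in pituitary. Akr1c18 differed most, by 224-fold and 199-fold with the pools included. No detection calls were available, so it is not known whether its low readings outside the ovary were above background, and these folds are rough. Lhx9 was higher in ovary than in pituitary but not than in hypothalamus, and Sult1e1 passed in neither contrast. Across all genes, 25.7% were higher in ovary than in hypothalamus at an adjusted p under 0.05 (4 of the 6 members) and 21.8% higher than in pituitary (5 of the 6). The shares lower in ovary were 21.5% and 19.2%, with no member. In whole tissue, a difference in the number of cells of a type and a difference in RNA per cell cannot be told apart.

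Ptgfr (cluster 17411163), the receptor for prostaglandin F2alpha, read 10.47, 10.92 and 10.14 in the control high, low and pool ovaries and 10.86, 10.35 and 10.13 in the stressed ones. In hypothalamus it ran from 4.79 to 6.92 with a median of 5.13, and in pituitary from 4.58 to 7.78 with a median of 5.05. The ovary range did not meet the others, whereas hypothalamus and pituitary overlapped. Ovary exceeded hypothalamus by 5.12 (95% confidence interval 4.38 to 5.85), or 34.7-fold, with an adjusted p of 3.01e-10 in limma. Against pituitary the difference was 5.09 (4.35 to 5.82), with an adjusted p of 7.44e-10 in limma. The highest value outside the ovary, 7.78, was the stressed pituitary pool, and without the pools the differences were 5.54 and 5.65.

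Akr1c18 (cluster 17290263), which reduces progesterone to a metabolite with little progestin activity, was read at 12.32, 12.75 and 12.43 in control ovaries and 12.59, 12.64 and 12.53 in stressed ovaries (high, low and pool). These 6 arrays averaged 12.54 ± 0.15 (SD, n = 6), the narrowest ovary spread of the 4 genes higher there. In hypothalamus Akr1c18 ran from 3.52 to 7.31, median 4.15, and in pituitary from 3.48 to 9.26, median 4.19. Both upper ends were the stressed pools, and without the pools the highest values were 5.34 and 4.74. The difference was 7.81 (6.49 to 9.12) from hypothalamus, with an adjusted p of 2.9e-09 in limma, and 7.64 (6.33 to 8.95) from pituitary, with an adjusted p of 7.61e-09. Without the pools it was 8.37 and 8.40. Akr1c18 belongs to a cluster of related reductase genes, and 5 measured relatives (Akr1c6, Akr1c12, Akr1c19, Akr1c20 and Akr1c21) read 1.58 to 3.34 in ovary and 1.28 to 4.11 elsewhere. A further relative, Akr1c14, had a much higher signal, 6.92 to 7.91 in ovary, 3.46 to 4.62 in hypothalamus and 7.37 to 8.35 in pituitary. Its ovary difference was 3.16 from hypothalamus (adjusted p of 1.54e-10 in limma) and -0.52 from pituitary (adjusted p of 0.0518). None of these 6 was higher in ovary than in both other tissues. Akr1cl, a relative by name, was higher than in both. It read 11.07 to 11.93 in ovary, 3.11 to 7.41 in hypothalamus and 4.39 to 8.89 in pituitary. The upper ends outside the ovary were again the stressed pools, and single mice there reached 3.66 and 5.76.

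Hsd17b7 (cluster 17229466) encodes a reductase that makes estradiol from estrone and also acts in cholesterol synthesis; it was first described as a prolactin receptor-associated protein of the corpus luteum. It read 10.96, 11.05 and 11.22 in the control high, low and pool ovaries and 11.28, 10.66 and 11.02 in the stressed ones. Hypothalamus ran from 6.51 to 7.61 (median 7.25) and pituitary from 5.48 to 8.10 (median 5.69). Among single mice, all 4 hypothalami lay above all 4 pituitaries, so Hsd17b7 was the member with a graded order there, ovary first, then hypothalamus, then pituitary. The stressed pituitary pool at 8.10 broke that order. Ovary exceeded hypothalamus by 3.85 (3.26 to 4.45), 14.4-fold, with an adjusted p of 8.52e-10 in limma. It exceeded pituitary by 4.95 (4.36 to 5.55), 31.0-fold, with an adjusted p of 6.63e-11 in limma.

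Cited4 (cluster 17418035), a cofactor that binds CBP and p300 and has no DNA-binding domain of its own, read 8.16, 8.40 and 10.04 in control ovaries and 8.09, 7.65 and 9.30 in stressed ovaries (high, low and pool). Hypothalamus ran from 5.54 to 6.78 (median 6.02) and pituitary from 6.16 to 8.14 (median 6.42). The control and stressed pituitary pools, at 8.14 and 7.82, lay above the stressed low ovary at 7.65, so the 6-array ranges of ovary and pituitary overlapped. Among single mice they did not, with 7.65 to 8.40 in ovary and 6.16 to 6.47 in pituitary. The ovary difference was 2.46 (1.83 to 3.09) from hypothalamus, 5.5-fold, with an adjusted p of 1.05e-06 in limma, and 1.73 (1.10 to 2.36) from pituitary, 3.32-fold, with an adjusted p of 0.000103. Without the pools the differences were 2.24 and 1.75.

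Lhx9 (cluster 17227589), a LIM-homeobox factor needed for gonad formation, read 5.62, 5.47 and 5.27 in control ovaries and 5.58, 5.41 and 5.64 in stressed ovaries. Hypothalamus gave 5.34 to 5.83 (median 5.53), which overlapped the ovary, and pituitary gave 4.34 to 5.05 (median 4.46), wholly below both. The difference of ovary from hypothalamus was -0.05 (-0.29 to 0.20), with an adjusted p of 0.785 in limma, and its sign turned when arrays were centred or quantile normalized. From pituitary it was 0.97 (0.72 to 1.21), 1.96-fold, with an adjusted p of 1.36e-06.

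Sult1e1 (cluster 17449417), the estrogen sulfotransferase, was near the bottom of the array's range: 6.74% of genes had a mean level at or below its own. Control ovaries read 3.08, 2.10 and 2.52 and stressed ovaries 3.80, 2.12 and 3.21 (high, low and pool). The hypothalamus range, 1.95 to 2.89, and the pituitary range, 2.11 to 2.68, overlapped the ovary and each other. The ovary differed by 0.41 (-0.06 to 0.87) from hypothalamus, with an adjusted p of 0.147 in limma, and by 0.38 (-0.08 to 0.84) from pituitary, with an adjusted p of 0.187. Those values became 0.64 and 0.61, with adjusted p of 0.0105 and 0.0168, without the stressed low ovary, 1 of the 2 lowest ovary arrays. Leaving out the stressed high ovary, the highest array, gave 0.22 and 0.20, with adjusted p of 0.444 and 0.512.

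**Figure D2:**
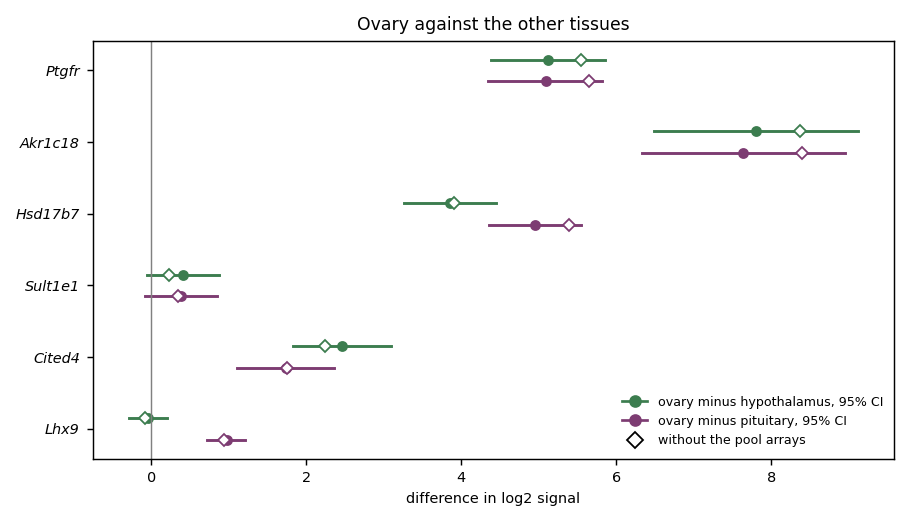
Differences in log2 signal (x axis) between ovary and hypothalamus (green) and between ovary and pituitary (purple) for the 6 genes, as filled points with 95% confidence intervals; open diamonds leave out the pool arrays. The intervals of Ptgfr, Akr1c18, Hsd17b7 and Cited4 lie above 0 in both contrasts, those of Sult1e1 cross 0 in both, and that of Lhx9 crosses 0 against hypothalamus.

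Over all genes, 15.9% were higher in ovary than in both other tissues by the test, and 4 of the 6 members were. Every ovary array lay above every other array for 8.64% of genes, among them 3 members (Ptgfr, Akr1c18 and Hsd17b7). On the 12 single-mouse arrays alone this held for 13.1% of genes and 4 members, Cited4 being added. The levels of Ptgfr and Akr1c18 correlated at 0.988 over the 18 arrays, those of Ptgfr and Hsd17b7 at 0.965 and those of Akr1c18 and Hsd17b7 at 0.956. Cited4 correlated with these 3 at 0.77 to 0.797. Points of 1 tissue share that tissue's level, so these values mostly restate the gap between tissues.

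Genes of the surrounding pathways were read from 11 lists. Of their 158 genes, 141 were measured, and 66 were higher and 9 lower in ovary than in both other tissues, against 3530 and 2488 of all 22180 genes. The lists, like the members, were chosen with earlier results of these data known, so such counts describe them and are not a test. In the progesterone synthesis list 11 of 13 measured genes were higher and none lower, with a median difference of 3.15 from hypothalamus and 1.99 from pituitary (0.03 and -0.01 over all genes). Star, which brings cholesterol into mitochondria, read 11.73 to 12.32 in ovary and was 6.79 and 6.40 above hypothalamus and pituitary. The stressed pools of those tissues read 7.56 and 8.91, while their single mice reached 5.44 and 5.27. Fdx1, the electron donor of mitochondrial steroid enzymes, was 4.68 and 4.28 higher. The nuclear receptor Nr5a2, needed for luteal function, was 3.69 and 3.67 higher.

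In the progestin and androgen catabolism list, 3 of 11 measured genes were higher (Akr1cl, Cyp17a1 and Hsd11b2) and 1 was lower (Hsd11b1). Akr1cl, named as a relative of the Akr1c family, was 7.27 above hypothalamus and 5.75 above pituitary. Among estradiol synthesis and 17-ketosteroid reductase genes, 6 of 8 were higher, led by Hsd17b1, the granulosa-cell estrone reductase, at 3.85 and 3.20. In the sulfotransferase list, 3 of 11 were higher and 1 was lower. The lower one was Sult4a1, a brain sulfotransferase-like protein, which was -4.79 against hypothalamus.

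In the prostaglandin list 10 of 17 measured genes were higher in ovary than in both other tissues. They included Ptgfrn, a partner protein that dampens Ptgfr, at 2.30 and 2.14, and the prostaglandin transporter Slco2a1, at 4.29 and 3.48. Oxtr, the oxytocin receptor, was 1.89 and 2.12 higher. In the prolactin signalling list 4 of 12 were higher (Stat3, Cish, Socs3 and Ghr). Cish, a feedback inhibitor of cytokine receptors, was 1.83 and 0.67 higher.

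Luteinization and luteal vessel genes were higher in 13 of 17 cases, with median differences of 1.67 and 1.28. Timp1, an inhibitor of matrix metalloproteinases, was 6.42 and 4.92 higher, the transcription factor Runx1 3.26 and 2.52, and the protease Adamts1 3.76 and 3.79. The 1 gene of this list that was lower in ovary than in both other tissues was Pgr, the nuclear progesterone receptor (-1.28 and -1.27). In the list of luteal regression and apoptosis genes, 5 of 16 were higher and 3 lower (Nr4a2, Fos and Bcl2). In the progesterone receptor and response list 3 of 10 were higher, among them the steroid receptor chaperone Fkbp5 at 3.72 and 3.11, and 1 was lower (Pgr again).

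For the regulators, 2 of 9 genes of the CITED and CBP/p300 list were higher and 1 was lower, a share near that over all genes (3530 and 2488 of 22180). Cited2, a close relative of Cited4, was 2.05 and 1.66 higher, and Kat2b, an acetyltransferase, 1.11 and 1.56. In the LIM-homeobox and gonad factor list 6 of 18 were higher and 2 were lower (Lhx2 and Isl1). Gata6 and Gata4, zinc-finger factors of ovarian somatic cells, were 4.24 and 4.01, and 2.86 and 2.78, higher.

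The series asked which genes transport stress changed in superovulated mice. None of the 6 genes passed the test in any tissue, and no gene of the 22180 did (0% in hypothalamus, pituitary and ovary; limma, Benjamini-Hochberg). The unadjusted p was under 0.05 for 245 hypothalamic, 294 pituitary and 592 ovarian genes, and no member was among them. The 3 stressed arrays lay wholly above the 3 control arrays for 4.71% of genes in ovary and wholly below for 4.07%, with no member in either set. In hypothalamus those shares were 1.94% and 2.6%, and in pituitary 2.4% and 3.68%, again with no member.

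In ovary the intervals differed in width between the genes. Akr1c18 differed by 0.08 between stress and control (95% confidence interval -0.33 to 0.50), Hsd17b7 by -0.09 (-0.56 to 0.38) and Ptgfr by -0.07 (-0.66 to 0.53). A change of 1 unit in either direction lay outside each of these 3 intervals. For Cited4 the difference was -0.52 (-1.76 to 0.71), for Sult1e1 0.48 (-0.47 to 1.42; 0.10 without the stressed high and 0.94 without the stressed low ovary) and for Lhx9 0.09 (-0.32 to 0.49). The interval of Lhx9 also left out a change of 1 unit, and those of Cited4 and Sult1e1 did not. All 6 had an adjusted p of 0.999 in limma.

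The classes did not move together for most genes in ovary. Ptgfr was 0.38 higher in the stressed than in the control high mouse, while the low mice differed by -0.57 and the pools by -0.01. Hsd17b7 gave 0.31, -0.39 and -0.19 and Akr1c18 0.27, -0.11 and 0.09 in the same order. Cited4 had the same sign in each class, at -0.07, -0.75 and -0.74, and so did Sult1e1, at 0.72, 0.02 and 0.69. With class as a block, Cited4 had an unadjusted p of 0.0222 and Sult1e1 of 0.0335 in limma, and both had an adjusted p of 0.499.

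**Figure D3:**
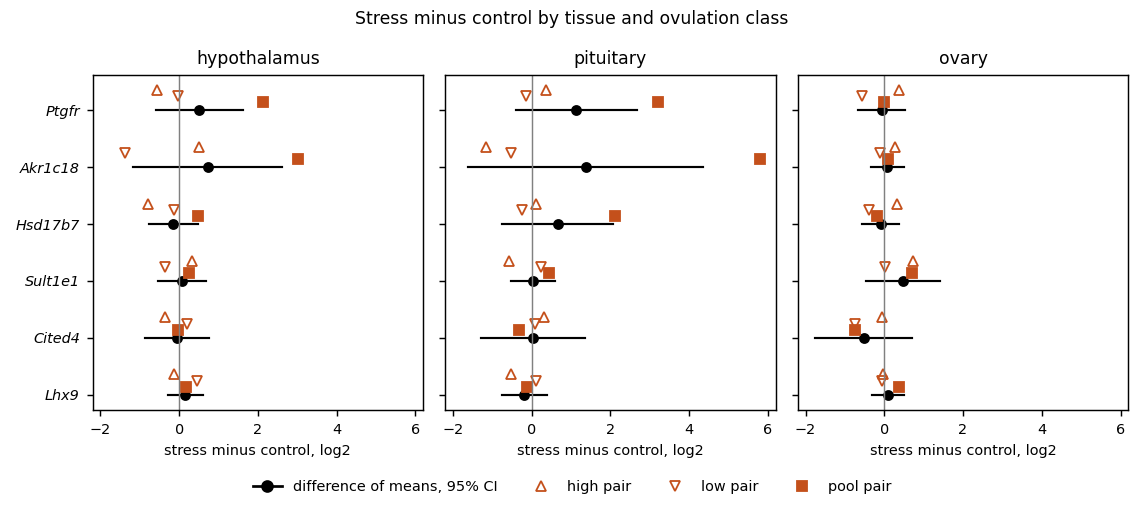
Stress minus control difference in log2 signal (x axis) for the 6 genes in each tissue; black points are differences of group means with 95% confidence intervals, and orange symbols are the high, low and pool pairs. In pituitary the pool pair lies at 5.79 for Akr1c18 and 3.20 for Ptgfr while the single-mouse pairs lie between -1.15 and 0.35, and in ovary the 3 pairs of these genes stay within 0.57 of 0.

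In pituitary and hypothalamus the stress differences of Akr1c18 and Ptgfr depended on the pools. In pituitary, Akr1c18 read 4.74, 4.45 and 3.48 in control and 3.58, 3.92 and 9.26 in stressed samples (high, low and pool). Only the stressed pool was high. The mean difference was 1.37 (-1.61 to 4.35), with an adjusted p of 1 in limma, and without the pools it was -0.84, with an unadjusted p of 0.00808 and an adjusted p of 0.689. Ptgfr in pituitary read 4.64, 5.26 and 4.58 in control and 4.99, 5.11 and 7.78 in stressed samples, and Hsd17b7 read 5.48, 5.79 and 5.98 against 5.59, 5.53 and 8.10. Their differences were 1.13 and 0.66 with the pools, and 0.10 and -0.07 without them.

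In hypothalamus Akr1c18 read 3.52, 5.34 and 4.28 in control and 4.02, 3.96 and 7.31 in stressed samples. Ptgfr read 5.38, 5.14 and 4.79 against 4.81, 5.12 and 6.92. For both genes the stressed pool was the highest array. Their differences were 0.72 and 0.51 with the pools and -0.43 and -0.30 without them. Hsd17b7, at 7.29, 7.33 and 7.13 in control and 6.51, 7.20 and 7.61 in stressed samples, differed by -0.15 (-0.77 to 0.48).

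The same stressed pools carried other ovarian transcripts. Cyp11a1, the enzyme that starts steroid synthesis, ran from 3.51 to 5.31 in single-mouse pituitaries and read 4.54 in their control and 11.34 in their stressed pool. Star ran from 4.62 to 5.27 and read 4.62 and 8.91 in those pools, and Inha, an inhibin subunit of granulosa cells, ran from 6.45 to 6.78 and read 7.76 and 9.29. In all, 6 of 7 ovarian markers were higher in the stressed pituitary pool than in all 4 single-mouse pituitaries, and 4 of 7 in the stressed hypothalamus pool, against 2 and 1 in the control pools. The part of these transcripts in the readings of Akr1c18, Ptgfr and Hsd17b7 was not tested. The stress effect itself did not pass as different between ovary and either other tissue for any gene (0 of 22180 in each interaction; 496 and 805 at an unadjusted p under 0.05 in limma).

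**Figure D4:**
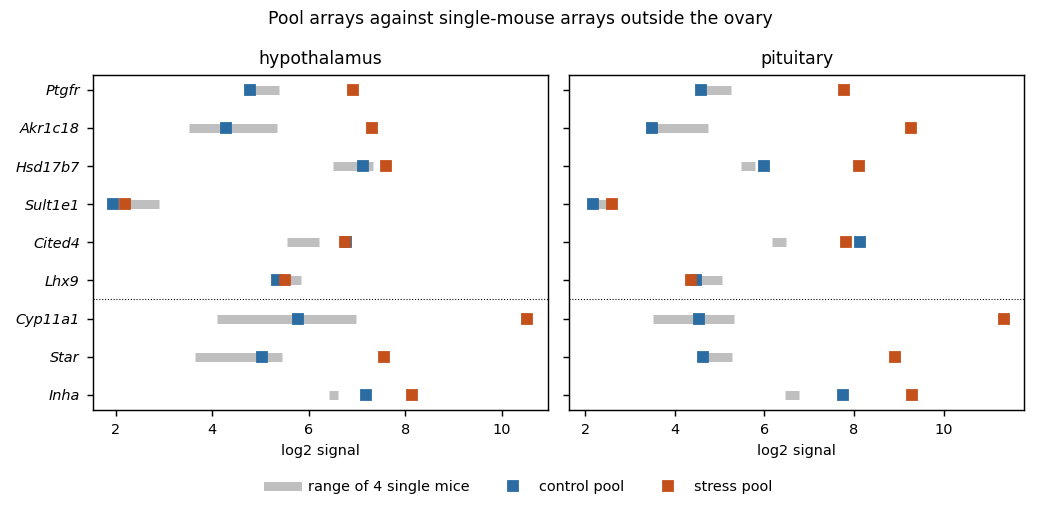
Log2 signal (x axis) of the 6 genes and, below the dotted line, of the ovarian markers Cyp11a1, Star and Inha in hypothalamus and pituitary; grey bars span the 4 single mice, blue squares are control pools and orange squares stressed pools. The stressed pools lie to the right of the grey bars for Ptgfr, Akr1c18, Hsd17b7 and all 3 markers, and the control pools do so for Cited4 and Inha in both tissues and for Hsd17b7 in pituitary.

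Cited4 also differed between pools and single mice. In every tissue both of its pools lay above all 4 single mice, which held for 2306 genes, 10.4% of all, and for no other member. A count of 1 among 6 members is near that share, so the pattern was not particular to Cited4. Taken by tissue the shares were 21% of genes in hypothalamus, 24.4% in pituitary, where Hsd17b7 also did so, and 20.9% in ovary. Each pool was set against the mean of all 4 single mice of its tissue, control and stressed together. Control and stressed pools exceeded that mean by 0.94 and 0.91 in hypothalamus, by 1.82 and 1.49 in pituitary and by 1.96 and 1.22 in ovary. The control pools shared this excess, unlike that of Akr1c18, whose control pools differed by 0.07, -0.70 and -0.14 from the same 4-mouse mean in the same order. Whether the excess belonged to the mice pooled or to the pooling was not tested.

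Among the listed pathway genes no stress difference in ovary passed the test in limma (0 of 141 measured). The 141 genes split into 68 higher and 73 lower, with a median of -0.01 against -0.02 over all genes. An unadjusted p under 0.05 was found for 6 of the 141, against 592 of 22180 genes (2.67%). Star differed by 0.40, Jak2, the kinase of the prolactin receptor, by 0.53 and Ptgs2, the inducible prostaglandin synthase, by 1.26. Casp8, an initiator caspase, differed by 0.74, Sult1c2 by 0.43 and the prostaglandin D receptor Ptgdr by -0.61. In the prostaglandin list as a whole 7 genes had positive and 10 negative signs, with a median of -0.02. In the luteal regression list 10 were positive and 6 negative, with a median of 0.12.

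The last comparison was of the mice with the most and the fewest ovulated oocytes. Each class had 2 ovaries, 1 control and 1 stressed. Sult1e1 was the member with a class difference of more than 1 log2 unit in ovary, and it did not pass after adjustment. No gene did (0% in ovary), while 2382 genes, 10.7%, had an unadjusted p under 0.05 in limma.

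Sult1e1 read 3.08 in the control and 3.80 in the stressed high mouse, and 2.10 and 2.12 in the low mice. The pools lay between, at 2.52 and 3.21. The table gives no detection call, so it is not known whether the low ovaries were above background, and no fold is given. Both high ovaries exceeded both low ones, by 0.98 in control and by 1.68 under stress. The difference in log2 signal was 1.33 (0.81 to 1.85), with an unadjusted p of 0.000618 and an adjusted p of 0.408 in limma. An unadjusted p under 0.001 was reached by 34 genes (0.153%), and a rise of at least 1 by 84 genes (0.379%). The low ovaries were within the range that Sult1e1 had in hypothalamus and pituitary, 1.95 to 2.89, and both high ovaries were above it.

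Estrogen sulfotransferase has also been described in fat, so fat markers were read beside it. The 6-marker mean was 5.05 and 5.15 in the high and 5.13 and 4.98 in the low ovaries (control and stressed). Fabp4, a fatty acid carrier of fat, endothelium and macrophages, read 6.22 and 6.67 in the high and 5.36 and 5.45 in the low ovaries. The more fat-restricted Adipoq read 3.17 and 3.76 in the high and 3.98 and 3.37 in the low ovaries, and Plin1 read 7 and 6.84 against 6.81 and 6.92. Cidec read 4.34 and 4.27 in the high and 4.69 and 4.55 in the low ovaries. Lep read 3.51 and 3.33 against 3.89 and 3.55, and Retn 6.06 and 6.06 against 6.07 and 6.01. Between the classes, Fabp4 had the direction of Sult1e1 and differed by 1.04 (unadjusted p of 0.000571 and adjusted p of 0.408 in limma). Cidec and Lep had the opposite direction, at -0.31 and -0.30, and the mean of the list did not separate the classes. The pools had the highest Fabp4, at 6.98 and 7.19, but not the highest Sult1e1. The part of fat in the Sult1e1 readings was not tested.

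**Figure D5:**
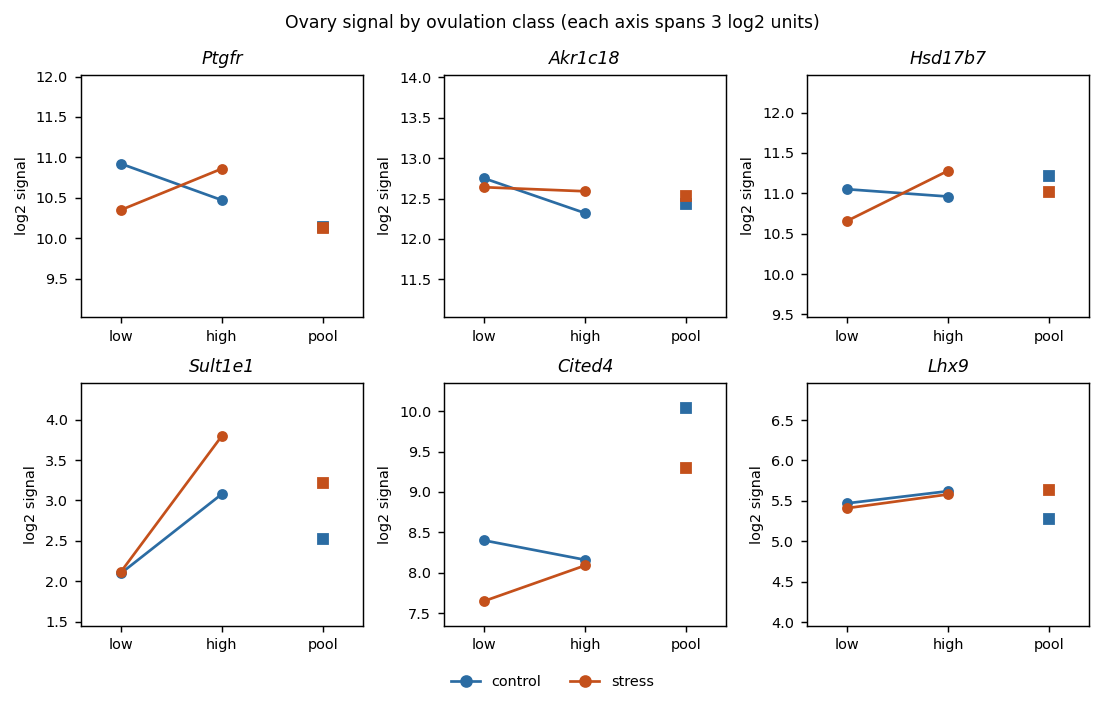
Log2 signal in ovary (y axis, each spanning 3 units) of the 6 genes by ovulation class (x axis), with control in blue and stress in orange, circles for single mice and squares for pools. Sult1e1 rises from low to high on both lines, from 2.10 to 3.08 and from 2.12 to 3.80, whereas the lines of Ptgfr, Hsd17b7 and Cited4 run in opposite directions in control and stress.

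The other members differed less between classes in ovary. Akr1c18 was lower in both high than in both low ovaries, by -0.43 in control and -0.05 under stress, with a mean of -0.24 (-0.65 to 0.16). That value ran from -0.10 without the control low ovary to -0.39 without the stressed low ovary. Lhx9 was higher in both, by 0.16 and 0.17. Both high ovaries lay above both low ones for 16.3% of genes and below them for 19.5%. Hsd17b7 gave -0.09 in control and 0.62 under stress, Ptgfr -0.44 and 0.51, and Cited4 -0.24 and 0.44. These signs were opposite, and the means, 0.27, 0.03 and 0.10, had adjusted p of 0.656, 0.97 and 0.888 in limma.

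Outside the ovary no gene passed for class either (0% in hypothalamus and in pituitary; 4275 and 1160 genes at an unadjusted p under 0.05 in limma). In hypothalamus, Cited4 was higher in both high than in both low mice (by 0.66 and 0.09), as were 25.6% of genes. In pituitary, Lhx9 was higher (by 0.71 and 0.07), as were 14.4% of genes, and Ptgfr lower (by -0.62 and -0.13), as were 18.4%.

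The named genes whose levels followed each member most closely over the 18 arrays were also read, by Pearson's r among 17264 genes. Akr1c18 was followed by Star (0.994), Ephx2 (0.994) and Mrap (0.993), and Ptgfr by Ephx2 (0.996), Hao2 (0.994) and Itgb3 (0.993). Hsd17b7 was followed by Gpam (0.988), Axl (0.987) and Slc25a45 (0.985), and Cited4 by Rfc5 (0.988), Dysf (0.979) and Cyba (0.969). Lhx9 was followed by Dpy19l1 (0.932), Enpp6 (0.929) and Fez2 (0.921). For Sult1e1 the closest were Cxcl11 (0.794), Cyp21a1 (0.733) and Slc34a2 (0.723). Arrays share tissues and pools, and these genes were picked as the highest values. Values within the 6 ovary arrays differed between pairs. These arrays were part of the pick, so the values are no separate test of likeness. Akr1c18 gave 0.253 with Star, 0.579 with Ephx2 and -0.638 with Mrap. Ptgfr gave 0.829 with Ephx2, 0.394 with Hao2 and 0.554 with Itgb3, and Hsd17b7 gave -0.482 with Gpam, -0.314 with Axl and 0.752 with Slc25a45. Sult1e1 gave 0.858, 0.927 and 0.755 with its 3 genes, each above the value over all arrays. Its spread was widest in ovary (SD 0.67, against 0.34 in hypothalamus and 0.24 in pituitary), so the ovary arrays bore on its pick. Cited4 gave 0.966, 0.925 and 0.945 on arrays where both pools were high. Lhx9 gave 0.0282, 0.328 and 0.141.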

How the data were processed

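RNA was extracted with Trizol and 6 ug were biotin-labelled for Affymetrix Mouse Gene 2.0 ST arrays, per the labels. The authors deposited log2 signals, 1 for each transcript cluster on each array, and used Transcriptome Analysis Console, per the submitters' processing notes. Its version, background correction and normalization are not given in the sources used here. Log2 was inferred from the range of the table, 0.4 to 13.66. Array medians lay between 5.5 and 5.69, and 0 of 153 array pairs were identical. Of 41345 clusters 23521 name 1 gene, and for the 1082 genes with several the cluster of highest mean was used, with no filter on low values. The build of the array annotation is not given, so clusters have no coordinates.

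Tissues were compared on all 18 arrays in limma 3.58.1 (R 4.3.3), with the mouse or pool as a random block (correlation 0.27, kept when arrays were left out). Stress minus control was fitted on the 6 arrays of a tissue, and high minus low with treatment as a term. The p-values are two-sided, adjusted over 22180 genes (Benjamini-Hochberg, threshold 0.05), with 95% confidence intervals. They measure the spread among arrays that mix single mice and pools. The members and the gene lists were chosen with earlier results of these data known, and 3 motifs (TATA box, CCAAT box and E-box) were added after the promoters were read. Named were all members, up to 4 genes per list by smallest unadjusted p in the contrast described, the markers, and the 3 genes most like each member; other list genes and Akr1c relatives are named where a count holds few, chosen after their values were seen. Promoters were read from RefSeq (GRCm38.p6), which held entries for all 7 members.

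Deviations from the group mean correlated at 0.359 to 0.727 between same-class arrays (9 pairs) and at -0.521 to 0.321 between different classes (18 pairs). A group's 3 deviations cancel and each group has 1 pool, so these ranges cannot show that class pairs the mice. For the single mice, same-class values were 0.405 and 0.52 in hypothalamus, 0.366 and 0.359 in pituitary and 0.373 and 0.374 in ovary. Their different-class values were 0.135 and -0.0502, 0.321 and 0.313, and 0.19 and 0.263. The steps were tested on simulated data on 22180 genes with 100 changed genes of each size. The simulated noise was independent between arrays, without a shared mouse or pool and without the shift of the pools, unlike the real arrays. For stress in ovary, 24% of 2-fold and 83% of 4-fold changes were recovered; for high minus low in ovary, 0% and 66%; for ovary minus hypothalamus, 64% and 98%. Figures were drawn with matplotlib 3.10.9 (Python 3.11.15).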

Additional observations from a re-analysis of the deposited data

How the results depend on the processing

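The ovary differences of Ptgfr, Akr1c18, Hsd17b7 and Cited4 from each other tissue kept their direction and their call under every alternative run: centring, quantile normalization, a filter at the median level, the mean of a gene's clusters, no block, a fixed block, no pools and each array left out. Sult1e1 and Lhx9 lay below that filter. Akr1c18 ranged from 7.57 to 8.37 against hypothalamus and from 7.19 to 8.44 against pituitary, and Cited4 from 2.24 to 2.60 and from 1.54 to 1.96. With ovulation class as a replicate block, 0 genes were called for stress in hypothalamus, 0 in pituitary and 0 in ovary, as without it, and it changed no other call. Of 572 alternatives for 36 member values, 532 kept direction and call, 38 turned the sign, none of them of a called value, and 2 gained a call (Sult1e1, given above).

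Without the pools, stress differences turned for Akr1c18 in hypothalamus (-0.43) and pituitary (-0.84), Ptgfr in hypothalamus (-0.30), Hsd17b7 in pituitary (-0.07), Lhx9 in ovary (-0.05) and Sult1e1 in hypothalamus (-0.02) and pituitary (-0.17). The ovary minus hypothalamus value of Lhx9 became 0.03 after centring and 0.04 after quantile normalization. Leaving out 1 array at a time gave, for stress in hypothalamus, -0.38 to 1.29 for Akr1c18, -0.38 to 0.24 for Cited4, -0.39 to 0.15 for Hsd17b7, -0.14 to 0.92 for Ptgfr and -0.16 to 0.19 for Sult1e1. In pituitary it gave -0.47 to 2.37 for Akr1c18, -0.44 to 0.66 for Cited4, -0.19 to 1.09 for Hsd17b7, -0.33 to 0.03 for Lhx9 and -0.08 to 0.20 for Sult1e1. In ovary it gave -0.01 to 0.21 for Akr1c18, -1 to 0.06 for Cited4, -0.24 to 0.07 for Hsd17b7, 0.00 to 0.17 for Lhx9, -0.27 to 0.14 for Ptgfr and 0.10 to 0.94 for Sult1e1. High minus low in ovary ran from -0.39 to -0.10 for Akr1c18, -0.24 to 0.43 for Cited4, -0.04 to 0.57 for Hsd17b7, -0.34 to 0.41 for Ptgfr and 0.99 to 1.67 for Sult1e1, with adjusted p of 0.181 to 0.616 for Sult1e1 over its alternatives. Lhx9 in ovary minus hypothalamus ran from -0.08 to 0.01.

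Counts over all genes that moved were high minus low in hypothalamus, 1138 with genes at or above the median level alone and 0 to 1 with 1 array left out; high minus low in ovary, 0 to 27 with 1 array left out (27 without the control high mouse, 1 without the stressed low mouse); and the ovary minus hypothalamus interaction, 1 without the pools and 0 to 1 with 1 array left out. The causes of these shifts were not tested. With 2 arrays per class and 3 per treatment, simulated 2-fold changes were recovered in 0% and 24% of cases in ovary, so differences of that size can go uncalled, and the low signal of Sult1e1 limits its values further.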
